A study of Mus musculus with 8 samples.

Results

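Aminoacyl-tRNA synthetases are the enzymes that load each amino acid onto its transfer RNA (tRNA), and the levels of 35 of their genes were compared in mouse embryonic stem cells that had or lacked canonical microRNAs. The genes were chosen by symbol, as an enzyme family: 19 encode cytosolic enzymes and 16, with symbols ending in 2, encode mitochondrial ones. They are 35 of the 49641 gene entries in the deposited table, each listed once, and all 35 had a mean level high enough to be tested (12786 entries in all).

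RNA sequencing covered 8 libraries, 2 for each of 4 groups, and levels are in FPKM (fragments per kilobase of transcript, relative to the library's mapped total). The first group was Dgcr8 knockout (Dgcr8 KO) cells transfected with 50 nM siRNAs against Mbnl1 and Mbnl2 (siMbnl1/2 cells). The second was Dgcr8 KO cells transfected with 50 nM of a mimic of miR-294, a microRNA abundant in these stem cells (miR-294 cells). The others were Dgcr8 KO cells and wild-type (WT) cells, both labelled as controls and named as mock transfections in the table's columns. Dgcr8 encodes a subunit of the Microprocessor, which cuts most microRNA precursors, and Mbnl1 and Mbnl2 encode muscleblind-like splicing regulators. All groups are labelled 129/C57BL/6, line V6.5, and were cultured with serum and LIF, either on gelatin or over irradiated fibroblasts as feeders; transfection took place 16 hours after plating. The column names give V65 for WT and ES1 for Dgcr8 KO, so Dgcr8 KO against WT also contains any difference between lines. The labels do not say that replicates were separate cultures, so p-values measure the spread between these libraries, which may be technical, and read depth is unknown because only FPKM is given.

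The library checks were read before the synthetases. Dgcr8 averaged 7.24, 7.04 and 8.19 FPKM in siMbnl1/2, miR-294 and Dgcr8 KO cells, against 22.4 FPKM in WT cells; a value over the whole gene does not show the deleted part. Mbnl2 averaged 12.8 FPKM in siMbnl1/2 cells against 26.6 FPKM in Dgcr8 KO cells and was called lower, whereas Mbnl1, at 6.8 against 8.71 FPKM, was not called (adjusted p = 0.158). The summed level of 9 stem cell markers was 5714 to 7517 FPKM per library. The summed level of 10 fibroblast markers was 2.84 to 5.45 FPKM, with 3.56 and 3.62 in siMbnl1/2, 5.45 and 5.01 in miR-294, 3.25 and 2.84 in Dgcr8 KO and 5.05 and 4.08 in WT cells. Of those 10 markers only Thy1 was high enough to test, Lum was at 0 in Dgcr8 KO and WT cells, and Postn was at 0 in 7 of the 8 libraries. This small sum was higher in the groups with high cytosolic synthetases, and its part in the results was not tested. In bulk RNA, a lower share of cells that express a gene and less of its RNA per cell cannot be told apart.

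Cytosolic synthetases charge tRNAs for translation of nuclear-encoded messages, and a separate nuclear-encoded set is imported into mitochondria to serve the mitochondrial ribosome. The Gars and Kars genes each supply both compartments, and mitochondria make glutaminyl-tRNA indirectly, through Ears2 and an amidotransferase. Many cytosolic synthetase genes are known targets of ATF4, the transcription factor of the amino acid and unfolded protein responses, which with C/EBP partners binds the C/EBP-ATF response element (CARE). Here the 11 genes Aars, Cars, Eprs, Gars, Iars, Lars, Nars, Sars, Tars, Wars and Yars are called ATF4-linked. The 8 other cytosolic genes are Dars, Farsa, Farsb, Hars, Kars, Qars, Rars and Vars. These lists were chosen with earlier results of these data known. Myc proteins, which bind the E-box CACGTG, are another known class of regulator of growth genes.

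The sequences shown here are the microRNA that was added and the start-site stretches of the synthetase genes that hold a CARE, the known ATF4 element. RefSeq (GRCm38.p6) gave a window from 250 bases before to 50 bases after the start site for 26 of the 35 genes. In the promoter stretches the capitals mark CARE matches (TGATGNAA on either strand) and E-boxes (CACGTG, the same on both strands), and in miR-294-3p they mark the seed, bases 2 to 8. The stretches lie at chr8:111033656-111033891 (+) for Aars, chr6:55037931-55038018 (+) for Gars, chr13:49682021-49682179 (+) for Iars, chr15:11399609-11399713 (-) for Tars and chr4:129189866-129189952 (+) for Yars, and miR-294-3p at chr7:3220691-3220712 (+).
miR-294-3p: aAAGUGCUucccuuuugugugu
Aars: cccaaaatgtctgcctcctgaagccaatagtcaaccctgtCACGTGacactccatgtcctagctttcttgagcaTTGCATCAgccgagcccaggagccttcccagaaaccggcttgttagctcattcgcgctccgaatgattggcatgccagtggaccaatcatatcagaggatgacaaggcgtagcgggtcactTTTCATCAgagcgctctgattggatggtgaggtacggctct
Gars: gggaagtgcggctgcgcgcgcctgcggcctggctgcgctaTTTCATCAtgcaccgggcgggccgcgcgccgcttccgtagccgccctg
Iars: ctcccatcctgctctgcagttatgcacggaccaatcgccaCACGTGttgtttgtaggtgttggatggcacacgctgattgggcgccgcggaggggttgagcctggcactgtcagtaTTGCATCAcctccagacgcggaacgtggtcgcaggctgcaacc
Tars: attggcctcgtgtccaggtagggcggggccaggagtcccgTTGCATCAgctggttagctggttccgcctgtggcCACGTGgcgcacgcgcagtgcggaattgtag
Yars: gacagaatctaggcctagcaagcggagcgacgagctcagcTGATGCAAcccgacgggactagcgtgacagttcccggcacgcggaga

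A CARE was found in the windows of 5 of 12 cytosolic genes (41.7%) and 0 of 14 mitochondrial genes, against 2.21% of the 11850 windows of tested genes and 3.97% of all 32851 windows. All 5 were ATF4-linked, of 7 ATF4-linked genes with a window; such sites are part of why these genes are called ATF4 targets, so the match is not independent of the list. Aars held 2 CARE matches and 1 E-box. E-boxes were in the windows of 4 cytosolic genes (Aars, Farsb, Iars and Tars; 33.3%) and 1 mitochondrial gene (Ears2; 7.14%), against 10.2% of tested genes' windows. No match means only that these letters are not in the window. Windows for Cars, Hars, Lars, Nars, Rars, Vars, Wars, Hars2 and Pars2 were not used here.

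FPKM is scaled to transcript length, so levels can be set beside each other between genes. The cytosolic genes lay well above the mitochondrial ones: in WT cells they averaged between 59.1 FPKM for Wars, the tryptophanyl enzyme, and 267 FPKM for Sars, the seryl enzyme. Mitochondrial genes averaged between 2.82 FPKM for Wars2 and 43.9 FPKM for Tars2 in WT cells. Sars was the highest cytosolic gene and Wars the lowest or among the lowest 3 in all 4 groups. Summed over its 19 genes, the cytosolic set had 1538 and 1601 FPKM in siMbnl1/2 cells, 2725 and 2704 FPKM in miR-294 cells, 1811 and 1714 FPKM in Dgcr8 KO cells, and 2503 and 2461 FPKM in WT cells. The libraries of the 4 groups did not overlap in this sum, with miR-294 cells highest, then WT, Dgcr8 KO and siMbnl1/2 cells. The 16 mitochondrial genes summed to 244 and 267 FPKM in siMbnl1/2, 282 and 297 in miR-294, 236 and 216 in Dgcr8 KO and 300.3 and 297 in WT cells, so the same groups lay closer together. The cytosolic sum was 6.30 and 6.00 times the mitochondrial sum in siMbnl1/2 cells, 9.67 and 9.10 times in miR-294 cells, 7.69 and 7.92 times in Dgcr8 KO cells and 8.33 and 8.29 times in WT cells. As a share of all FPKM, cytosolic synthetases made up 0.301% and 0.310% in siMbnl1/2, 0.503% and 0.492% in miR-294, 0.360% and 0.362% in Dgcr8 KO and 0.438% and 0.436% in WT cells.

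**Figure D1:**
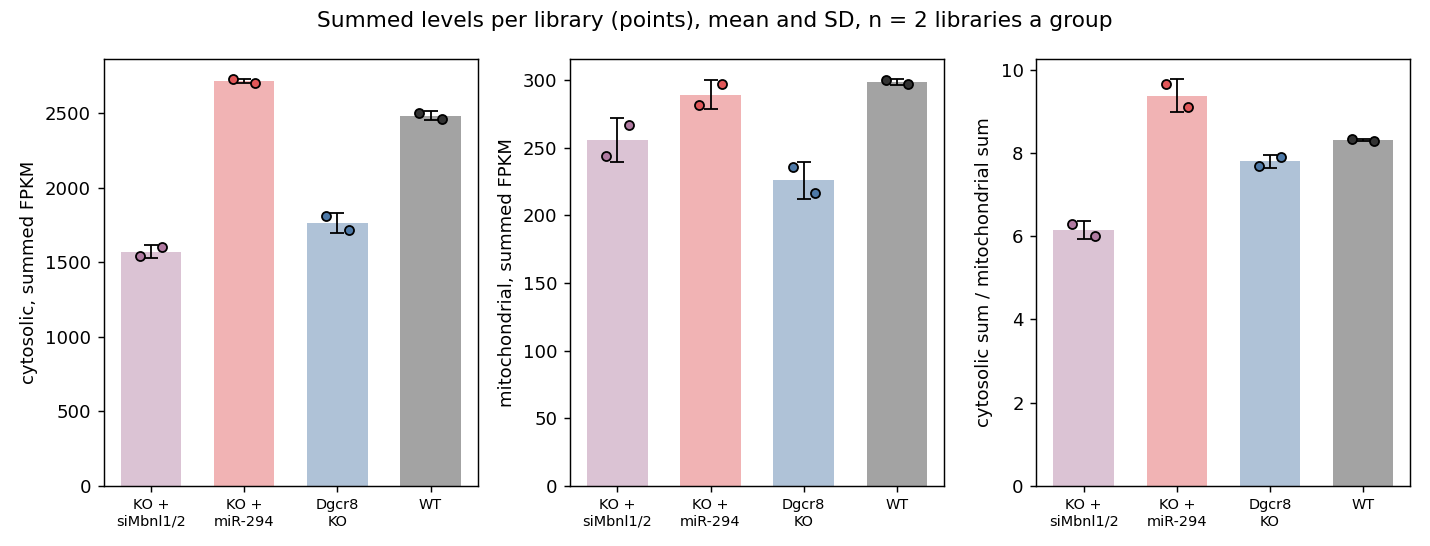
Summed FPKM of the 19 cytosolic genes (left) and 16 mitochondrial genes (middle) and their ratio (right) per library; points are libraries, bars group means and error bars the SD of 2 libraries. Cytosolic sums run from 1538 to 2725 FPKM with no overlap between groups, while mitochondrial sums run from 216 to 300.3 FPKM.

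Loss of Dgcr8 went with lower levels of most synthetases. Of the 19 cytosolic genes, 17 were called lower in Dgcr8 KO than in WT cells and 0 higher, with calls made in limma where the p adjusted by Benjamini-Hochberg over all 12786 genes was under 0.05. Among all genes tested, 30.1% were called lower and 29.6% higher. Of the 16 mitochondrial genes, 9 were called lower and 0 higher. Changes are differences of mean log2(FPKM + 1), which understate the change of low genes; their median was -0.50 for cytosolic genes, -0.34 for mitochondrial genes and 0.00 for all genes. Quantile normalization turned the order of the compartments round, with medians of -0.23 for cytosolic and -0.37 for mitochondrial genes. It left 10 cytosolic genes called lower, 5 of them ATF4-linked, against 9 mitochondrial ones. It moved the estimates of Gars, Iars and Sars to 0.06, 0.11 and 0.07, and those of the uncalled Dars and Vars to 0.14 and 0.21.

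The alpha subunit of the phenylalanyl enzyme and the lysyl enzyme fell furthest. Farsa (chr8:84856989-84869257) had 43.8 and 37.1 FPKM in Dgcr8 KO cells against 87.2 and 83 FPKM in WT cells, a change of -1.06 ± 0.09 (SE, adjusted p = 6.43e-05). The values did not overlap, and the beta subunit gene Farsb (chr1:78417975-78488897) averaged 60.7 FPKM in Dgcr8 KO and 92.4 FPKM in WT cells (-0.60). Kars (chr8:111993443-112011323) had 129.8 and 117 FPKM in Dgcr8 KO cells against 256 and 246 FPKM in WT cells, a change of -1.02 ± 0.07 (adjusted p = 2.17e-05). By mean level Kars ranked 4 of 19 in Dgcr8 KO cells and 2 of 19 in WT cells. Wars (chr12:108860030-108894174) had 37 and 31.5 FPKM in Dgcr8 KO cells against 58.5 and 59.7 FPKM in WT cells (-0.77 ± 0.09, adjusted p = 0.00027).

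Among mitochondrial enzymes the histidyl and arginyl genes fell most. Hars2 (chr18:36783008-36792562) had 13.2 and 13 FPKM in Dgcr8 KO cells against 26.1 and 25.1 FPKM in WT cells, a change of -0.91 ± 0.07 (adjusted p = 4.82e-05). Its gene overlaps the 5′ end of Hars by 198 bases on the opposite strand, and Hars (chr18:36766530-36783205) fell too, by 0.71. Whether the counting used strand is not given in the sources used here, so reads of that overlap cannot be assigned. Aars, Farsb, Wars, Yars, Cars2, Ears2, Fars2 and Iars2 also overlap another coding gene, over 30 to 2315 bases. Rars2 (chr4:34614957-34660167) had 19.5 and 19.7 FPKM in Dgcr8 KO cells and 33.1 and 34.8 FPKM in WT cells (-0.76 ± 0.09, adjusted p = 0.000215). The other mitochondrial genes called lower were Cars2 (-0.71), Lars2 (-0.61), Ears2 (-0.52), Sars2 (-0.49), Mars2 (-0.49), Tars2 (-0.38) and Aars2 (-0.30). The 7 not called ranged from -0.19 for Yars2 to 0.29 for Fars2, the mitochondrial phenylalanyl enzyme.

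The remaining cytosolic genes called lower in Dgcr8 KO cells ranged from -0.76 for Tars to -0.16 for Iars. Dars, the aspartyl enzyme, had 77.2 and 81 FPKM in Dgcr8 KO cells against 83.9 and 88.9 FPKM in WT cells and was not called (adjusted p = 0.161). Vars, the valyl enzyme, was not called either, at 107 and 83.2 FPKM in Dgcr8 KO and 105 and 95.4 FPKM in WT cells, and its 2 Dgcr8 KO libraries spanned both WT values. ATF4-linked genes, 11 of 11 called lower, had a median change of -0.50, and the 8 others, 6 called lower, had a median of -0.60. Leaving out WT replicate 1 lost the calls of Iars, Sars, Yars, Aars2 and Ears2. Iars lost its call on leaving out any WT, Dgcr8 KO or miR-294 library, Sars and Aars2 also in the absence of WT replicate 2 and of Dgcr8 KO replicate 2, Aars2 also in that of either miR-294 library, and Yars also in that of Dgcr8 KO replicate 2.

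**Figure D2:**
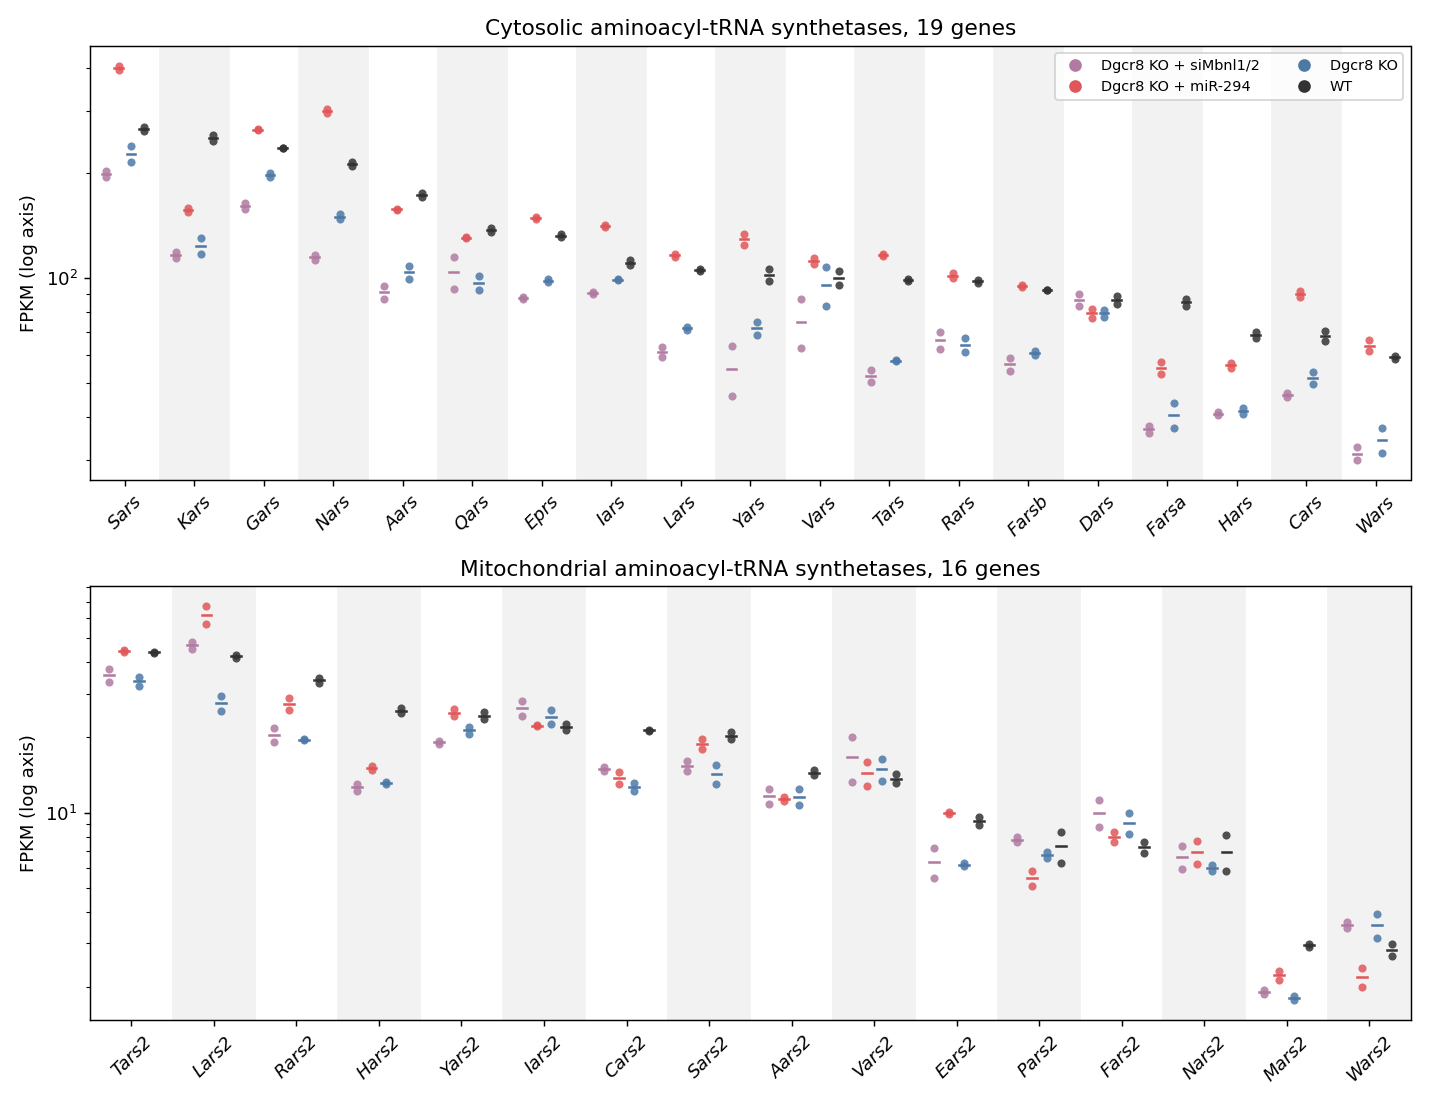
FPKM on a log axis of each cytosolic (top) and mitochondrial (bottom) synthetase in siMbnl1/2, miR-294, Dgcr8 KO and WT cells; points are libraries, short lines the mean of 2, and genes run by mean level. Kars stands at 256 and 246 FPKM in WT cells and at no more than 158 FPKM in the other groups, and Sars and Nars are highest in miR-294 cells.

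The miR-294 mimic went with higher levels of nearly the whole cytosolic set in Dgcr8 KO cells. Of 19 cytosolic genes, 17 were called higher in miR-294 than in Dgcr8 KO cells and 0 lower, where 22.9% of all genes tested were called higher and 29.2% lower. Of 16 mitochondrial genes, 6 were called higher and 1 lower. The median change was 0.60 for cytosolic genes, 0.18 for mitochondrial genes and -0.06 for all genes. Under quantile normalization the compartments lay close together, at 0.38 and 0.30, with 15 cytosolic and 9 mitochondrial genes called higher; Kars and Qars lost their calls, and Cars2, Hars2 and Mars2 gained one. The difference between compartments was not tested. These are the same Dgcr8 KO libraries that were set against WT, so a low Dgcr8 KO value enters both comparisons.

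Asparaginyl, threonyl, tryptophanyl and tyrosyl enzymes led the rise among cytosolic genes. Nars (chr18:64499665-64516557) had 298 and 304 FPKM in miR-294 cells against 147 and 152 FPKM in Dgcr8 KO cells, a change of 1.00 ± 0.05 (adjusted p = 3.71e-05). Tars (chr15:11383663-11399658), whose start-site stretch holds 1 CARE and 1 E-box, had 117 and 116 FPKM in miR-294 cells against 57.7 and 57.9 FPKM in Dgcr8 KO cells (1.00 ± 0.06, adjusted p = 4.83e-05). In both genes the miR-294 libraries were far above the Dgcr8 KO ones and differed little from each other. Wars had 66.2 and 61.5 FPKM in miR-294 cells and 37 and 31.5 FPKM in Dgcr8 KO cells (0.88 ± 0.09, adjusted p = 0.000252). Yars (chr4:129189760-129219607), which also holds a CARE, had 134 and 124 FPKM in miR-294 cells and 74.6 and 68.5 FPKM in Dgcr8 KO cells (0.84 ± 0.14, adjusted p = 0.00199). All 11 ATF4-linked genes were called higher, by 0.43 to 1.00 with a median of 0.79, also under every alternative setting run. Of the 8 others 6 were called higher, with a median of 0.43, and the uncalled ones were Dars (0.00, adjusted p = 0.986) and Vars (0.24, adjusted p = 0.257). The difference between these medians was not tested. Of the 5 genes with a CARE match, changes were 0.84 for Yars, 1.00 for Tars, 0.60 for Aars, 0.51 for Iars and 0.43 for Gars, so they spread over the whole ATF4-linked range.

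Lars2, the mitochondrial leucyl enzyme (chr9:123366927-123462666), had the largest rise of all 35 genes. It had 56.8 and 67.2 FPKM in miR-294 cells against 29.3 and 25.5 FPKM in Dgcr8 KO cells, a change of 1.15 ± 0.10 (adjusted p = 0.000141). A pair of entries for ribosomal-RNA-like loci, picked after their values were seen, moved with it: Gm42418 averaged 415 FPKM in miR-294 and 262 FPKM in Dgcr8 KO cells, and Gm26917 averaged 105 and 46.9 FPKM, both called higher. Their part in the Lars2 result was not tested. The other mitochondrial genes called higher were Ears2 (0.61), Rars2 (0.46), Tars2 (0.40), Sars2 (0.38) and Yars2 (0.22). Yars2 lost its call on leaving out either WT or miR-294 library or Dgcr8 KO replicate 1, Sars2 without Dgcr8 KO replicate 2 or miR-294 replicate 2, and cytosolic Qars without miR-294 replicate 1. Without Lars2 the mitochondrial sum averaged 227 FPKM in miR-294 cells and 199 FPKM in Dgcr8 KO cells.

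Wars2, the mitochondrial tryptophanyl enzyme (chr3:99141068-99239186), was the one synthetase called lower with the mimic. It had 2 and 2.39 FPKM in miR-294 cells against 3.91 and 3.15 FPKM in Dgcr8 KO cells, a change of -0.50 ± 0.12 (adjusted p = 0.0117). The libraries did not overlap, but these are among the lowest levels of the set, and the call was lost on leaving out Dgcr8 KO replicate 1 or miR-294 replicate 1. Its 3′ UTR holds 1 match to the miR-294 seed, shown with the seed match in capitals because it is the only match among genes called lower.
Wars2: tattcataataAGCACTTctatttttaca
Either of 2 matches to the seed was searched, AGCACTT (pairing with bases 2 to 8) or GCACTTA, in GENCODE M21 3′ UTRs. A match was found in 6 of 16 mitochondrial genes (37.5%, median 3′ UTR length 954.5 bases) and 1 of 19 cytosolic genes (5.26%, median 354 bases), against 20.8% of 11503 tested genes (median 1136 bases). The 7 genes did not move one way: Wars2 fell, Cars (0.79) and Tars2 (0.40) rose, and Mars2 (0.20), Hars2 (0.19), Aars2 (-0.02) and Iars2 (-0.10) were not called. A match in a 3′ UTR describes the sequence and is no evidence of binding.

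**Figure D3:**
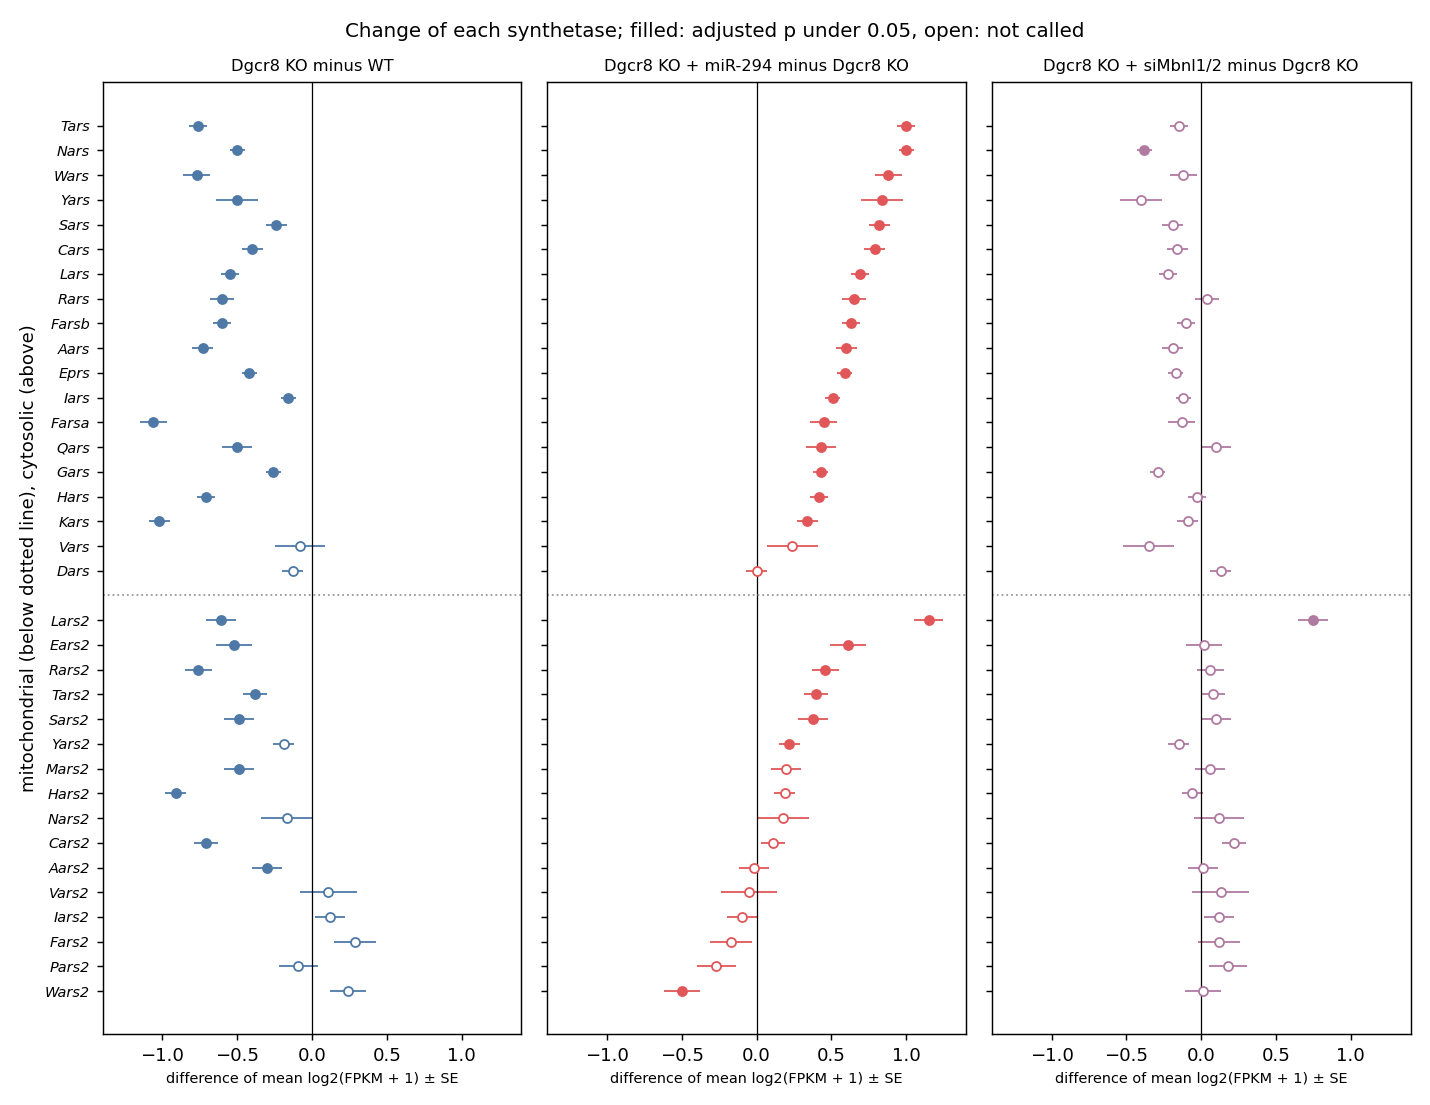
Change of each gene in 3 comparisons as the difference of mean log2(FPKM + 1), with SE; filled points have an adjusted p under 0.05 in limma, and genes run by their change with miR-294. Cytosolic genes lie to the left of 0 in Dgcr8 KO against WT cells. Under quantile normalization, not drawn, Gars, Iars, Sars, Dars and Vars lie to the right there. With miR-294 the cytosolic genes apart from Dars lie to the right, while siMbnl1/2 leaves 2 filled points, Nars and Lars2.

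Set against WT, miR-294 cells showed a split within the cytosolic set. Of its 19 genes, 6 were called higher in miR-294 than in WT cells, all of them ATF4-linked (Sars, Nars, Cars, Iars, Tars and Gars). Lower calls went to 3 genes, none of them ATF4-linked (Kars, Farsa and Hars). Among all genes tested 11.8% were called higher and 14.7% lower. The split was not complete in a limma fit of only the miR-294 and WT libraries. That fit also called ATF4-linked Aars lower (-0.14, adjusted p = 0.0122) and Vars, not ATF4-linked, higher (0.16, adjusted p = 0.047). It called Eprs, Lars and Yars, all ATF4-linked, higher as well. The median change was 0.24 for ATF4-linked genes, -0.10 for the 8 others, -0.05 for mitochondrial genes and -0.05 for all genes. Whether the 2 cytosolic lists differ was not tested, and the lists were not chosen blind to earlier results of these data. As a ratio of sums, ATF4-linked genes stood at 1.72 and 1.68 times the other cytosolic genes in siMbnl1/2 cells, 2.47 and 2.44 times in miR-294 cells, 1.91 and 1.95 times in Dgcr8 KO cells and 1.70 times in both WT libraries. By that ratio the miR-294 libraries stood above the other 6.

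Sars (chr3:108424865-108445209) had 406 and 395 FPKM in miR-294 cells against 271 and 263 FPKM in WT cells, a change of 0.58 ± 0.07 (adjusted p = 0.00108). Nars had 298 and 304 FPKM in miR-294 cells and 214 and 209 FPKM in WT cells (0.50 ± 0.05, adjusted p = 0.000897). Cars, the cysteinyl enzyme (chr7:143557230-143600090), had 91.5 and 88 FPKM in miR-294 cells and 70.5 and 65.9 FPKM in WT cells (0.39 ± 0.07, adjusted p = 0.00662). In each of these genes both miR-294 libraries were above both WT libraries, whereas the Dgcr8 KO libraries were below them. Iars, the isoleucyl enzyme (chr13:49682100-49734267), had 141 and 140.3 FPKM in miR-294 cells against 112 and 109 FPKM in WT cells (0.35 ± 0.05, adjusted p = 0.00392). Aars, whose stretch holds 2 CARE matches, did not follow: it averaged 157 FPKM in miR-294 and 173 FPKM in WT cells and was not called (-0.14, adjusted p = 0.19).

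Genes of both compartments were called lower than in WT cells, 3 of 19 cytosolic and 3 of 16 mitochondrial. Both counts lay near the share of all genes tested, 14.7%. Kars had 154 and 158 FPKM in miR-294 cells against 256 and 246 FPKM in WT cells, a change of -0.68 ± 0.07 (adjusted p = 0.000618). Farsa had 57.4 and 53.1 FPKM in miR-294 cells and 87.2 and 83 FPKM in WT cells (-0.61 ± 0.09, adjusted p = 0.00323). Hars2 had 14.8 and 15.4 FPKM in miR-294 cells and 26.1 and 25.1 FPKM in WT cells (-0.73 ± 0.07, adjusted p = 0.000669). For Hars2 the miR-294 libraries were close to the Dgcr8 KO ones, at 13.2 and 13 FPKM. Cars2, the mitochondrial cysteinyl enzyme (chr8:11513977-11550783), had 13 and 14.6 FPKM in miR-294 cells and 21.5 and 21.3 FPKM in WT cells (-0.60 ± 0.08, adjusted p = 0.00239). Rars2 (-0.31) was also called lower and Lars2 (0.54) higher, and the 12 other mitochondrial genes were not called (-0.35 to 0.12). Differences between the Dgcr8 KO and WT lines enter these values.

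Several calls of this comparison were lost when a group was left with 1 library, while no called gene changed sign. With all 8 libraries kept, Rars2 also lost its call under both alternative scalings and with no filter on low values. Gars lost its call with no filter on low values. The calls of Gars, Tars, Hars and Rars2 were lost on leaving out either WT or either miR-294 library, that of Lars2 on leaving out either WT library or miR-294 replicate 2, that of Cars without WT replicate 2 or miR-294 replicate 1, and that of Iars without WT replicate 2. The cytosolic count fell to 4 called genes without WT replicate 2 and 5 without miR-294 replicate 1, the mitochondrial count to 2 without WT replicate 1 or miR-294 replicate 2, while in a fit of only these 4 libraries the cytosolic count was 14.

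**Figure D4:**
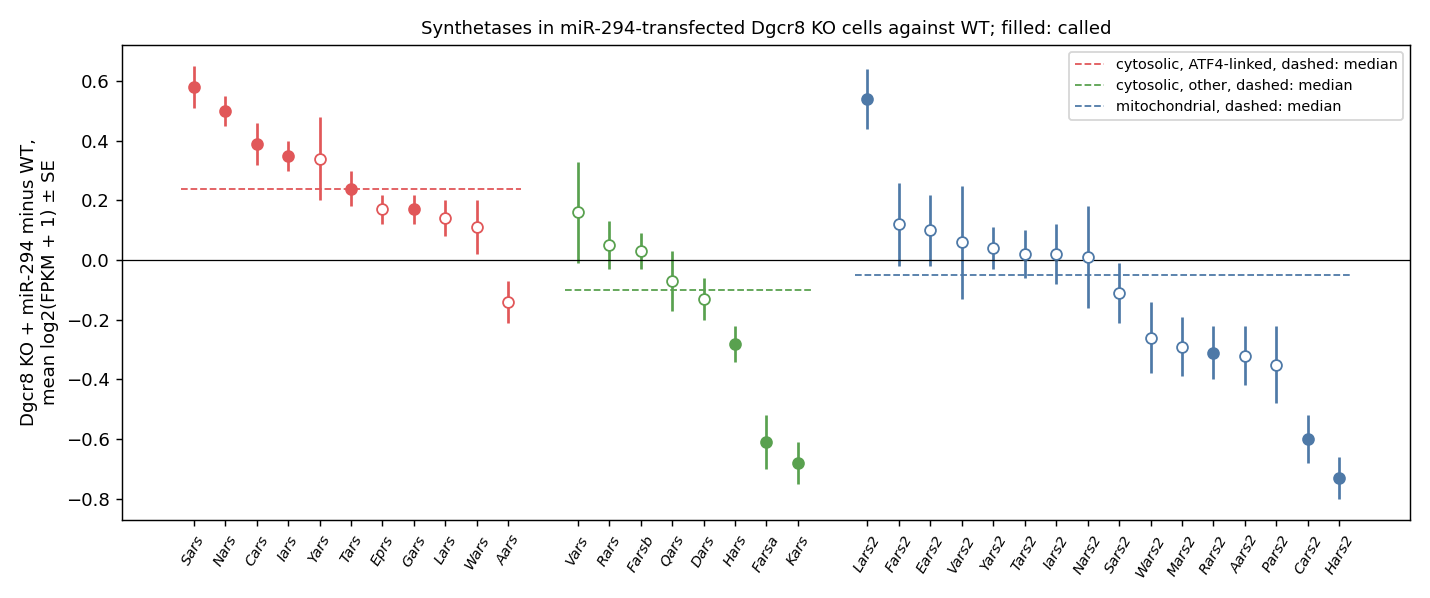
Change of each gene in miR-294 cells against WT cells, as the difference of mean log2(FPKM + 1) with SE, by list; filled points have an adjusted p under 0.05 in limma and dashed lines are list medians. ATF4-linked genes have a median of 0.24 with 6 filled points above 0, and the other cytosolic genes a median of -0.10 with 3 filled points below 0.

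Knockdown of Mbnl1/2 in Dgcr8 KO cells moved few synthetases past the threshold. Of 19 cytosolic genes 0 were called higher and 1, Nars, lower in siMbnl1/2 than in Dgcr8 KO cells, and of 16 mitochondrial genes 1, Lars2, was called higher and 0 lower. Few genes were called at all in this comparison, 0.868% higher and 0.242% lower. At an unadjusted p under 0.05, 8 of 19 cytosolic and 2 of 16 mitochondrial genes passed, against 2355 of all 12786 genes tested. Nars had 116 and 112 FPKM in siMbnl1/2 cells against 147 and 152 FPKM in Dgcr8 KO cells, a change of -0.38 ± 0.05 (adjusted p = 0.0314). Lars2 had 48.4 and 45.2 FPKM in siMbnl1/2 cells and 29.3 and 25.5 FPKM in Dgcr8 KO cells (0.75 ± 0.10, adjusted p = 0.0263). The rRNA-like entries again moved with Lars2, Gm42418 averaging 440.1 FPKM in siMbnl1/2 and 262 FPKM in Dgcr8 KO cells and Gm26917 106 and 46.9 FPKM. In siMbnl1/2 against miR-294 cells they did not move together: Lars2 was called lower (-0.39, adjusted p = 0.0133), and neither entry was called (0.01 and 0.08). The part of these entries in the Lars2 values was not tested. Both synthetase calls were lost with no filter on low values, with only the libraries of the comparison and on leaving out either WT library, either miR-294 library or Dgcr8 KO replicate 2. Nars also lost its call without Dgcr8 KO replicate 1, and Lars2 without siMbnl1/2 replicate 1.

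Below the threshold, all 11 ATF4-linked genes had negative estimates (-0.40 to -0.12, median -0.19), and 10 of them had both siMbnl1/2 libraries below both Dgcr8 KO libraries. Over all genes tested 13.9% were lower without overlap in this way. Gars, the glycyl enzyme (chr6:55038007-55079500), was nearest to a call, at 158 and 164 FPKM in siMbnl1/2 cells against 199.9 and 194 FPKM in Dgcr8 KO cells (-0.29 ± 0.05, adjusted p = 0.0532), and was called under both alternative scalings. Yars had the most negative estimate (-0.40 ± 0.14), with 45.8 and 63.5 FPKM in siMbnl1/2 and 74.6 and 68.5 FPKM in Dgcr8 KO cells, a wide spread within the siMbnl1/2 pair. The 8 other cytosolic genes had a median of -0.06, with 1 of 8 lower without overlap, and the 16 mitochondrial genes a median of 0.09.

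The treatments were also set directly against each other. Of 19 cytosolic genes, 18 were called lower in siMbnl1/2 than in miR-294 cells (all but Dars, at 0.13, adjusted p = 0.164) and 0 higher, where 21.0% of all genes tested were called lower and 33.0% higher. Of 16 mitochondrial genes, 6 were called lower and 2 higher. The median change was -0.73 for cytosolic, -0.10 for mitochondrial and 0.10 for all genes; a median-of-ratios scaling brought the last to 0.00 and the split of all calls to 3477 higher and 3461 lower, from 4217 and 2685.

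Nars differed most, with 116 and 112 FPKM in siMbnl1/2 cells against 298 and 304 FPKM in miR-294 cells (-1.39 ± 0.05, adjusted p = 1.02e-05). Yars had 45.8 and 63.5 FPKM in siMbnl1/2 cells and 134 and 124 FPKM in miR-294 cells (-1.24 ± 0.14, adjusted p = 0.000326). Tars (-1.14 ± 0.06, adjusted p = 2.78e-05), Sars (-1.01 ± 0.07, adjusted p = 4.33e-05) and Wars (-1.0 ± 0.09, adjusted p = 0.000132) came next. All 11 ATF4-linked genes were called lower (median -0.94), and 7 of the 8 others (median -0.51). Among mitochondrial genes the prolyl enzyme Pars2 (chr4:106651069-106655282) went the other way, with 7.6 and 7.97 FPKM in siMbnl1/2 cells and 5.83 and 5.1 FPKM in miR-294 cells (0.45 ± 0.13, adjusted p = 0.0236). Wars2 did so too, with 3.65 and 3.45 FPKM in siMbnl1/2 cells and 2 and 2.39 FPKM in miR-294 cells (0.51 ± 0.12, adjusted p = 0.0102). The mitochondrial count was 3 without miR-294 replicate 2, 4 without miR-294 replicate 1 and 5 without siMbnl1/2 replicate 2, with the call of Pars2 lost in all 3. Quantile normalization ended both calls in the other direction, moving Pars2 to 0.18 (adjusted p = 0.248) and Wars2 to 0.27 (adjusted p = 0.0894). It gave 8 mitochondrial genes lower and 0 higher with a median of -0.30. Of the cytosolic genes it called 17 lower and 1 higher, Dars (0.27, adjusted p = 0.0172), while Qars lost its call. Wars2 lost its call without miR-294 replicate 1, and cytosolic Qars and Vars theirs without either miR-294 library or siMbnl1/2 replicate 1.

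For 12 amino acids a cytosolic gene and its mitochondrial counterpart were both in the set. The cytosolic member had the more positive change in 11 of 12 pairs with miR-294 against Dgcr8 KO, all but Lars and Lars2, and in 5 of 12 pairs in Dgcr8 KO against WT cells. In siMbnl1/2 against miR-294 cells it was more negative in 12 of 12 pairs, and in siMbnl1/2 against Dgcr8 KO cells in 11 of 12. The ratio within a pair varied most between groups for the tryptophanyl enzymes: mean Wars was 8.81 times mean Wars2 in siMbnl1/2 cells, 29.1 times in miR-294 cells, 9.70 times in Dgcr8 KO cells and 21.0 times in WT cells. It varied least for the arginyl enzymes, with mean Rars at 3.23, 3.71, 3.28 and 2.88 times mean Rars2 in siMbnl1/2, miR-294, Dgcr8 KO and WT cells. Under quantile normalization the cytosolic member was the more positive in 9 of 12 pairs with miR-294 against Dgcr8 KO. That number was 7 of 12 in Dgcr8 KO against WT cells. In siMbnl1/2 against miR-294 cells the cytosolic member was then the more negative in 11 of 12. These comparisons share libraries, and the pair counts were not tested.

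The multisynthetase complex holds several cytosolic synthetases on 3 scaffold proteins. The 7 synthetase genes of the complex in the set are Dars, Eprs, Iars, Kars, Lars, Qars and Rars. Of these, 6 were called lower in Dgcr8 KO than in WT cells (median -0.50) and 6 higher in miR-294 than in Dgcr8 KO cells (median 0.51), with Dars uncalled in both. The 12 cytosolic genes outside the complex had 11 called in each of these comparisons, with medians of -0.55 and 0.71, and among all genes 30.1% were called lower in Dgcr8 KO and 22.9% higher with miR-294. Quantile normalization left 3 of the 7 called lower and 4 of the 7 called higher. The scaffold genes Aimp1, Aimp2 and Eef1e1 were called the same way, 3 of 3 lower in Dgcr8 KO and 3 of 3 higher in miR-294 cells, and 0 of 3 in siMbnl1/2 cells; quantile normalization left 2 of 3 lower in Dgcr8 KO cells. Eef1e1 had 86.5 and 84.2 FPKM in miR-294 cells and 44 and 47.9 FPKM in Dgcr8 KO cells (0.88 ± 0.09), and 89.7 and 94 FPKM in WT cells. Split by catalytic fold, the 8 cytosolic class I and 10 class II genes had medians of 0.67 and 0.52 with miR-294. In Dgcr8 KO against WT cells the medians were -0.50 and -0.65. Eprs, which belongs to both classes, was left out of this split, and the difference between classes was not tested.

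Genes around the synthetases gave a further frame. A list of 16 genes of ATF4 and its stress targets, 15 of them tested, had 11 called lower and 1 higher in Dgcr8 KO against WT cells (median -0.70). In miR-294 against Dgcr8 KO cells 14 were called higher and 0 lower (median 0.76). Of all genes tested, 30.1% were called lower and 29.6% higher in the first comparison, and 22.9% higher and 29.2% lower in the second. Atf4, given because it names the list, had 134 and 115 FPKM in siMbnl1/2, 261 and 264 in miR-294, 149 and 146 in Dgcr8 KO and 252 and 240.4 in WT cells. Its level thus was near that of WT cells with miR-294 and lower in the other Dgcr8 KO groups. With miR-294 the largest rises in the list were those of Chac1, a glutathione-degrading enzyme (1.69 ± 0.10), Trib3, a pseudokinase (0.94 ± 0.09), and Phgdh, the first enzyme of serine synthesis (0.94 ± 0.11). In siMbnl1/2 against Dgcr8 KO cells 3 of the 15 were called lower and 0 higher, against 0.242% and 0.868% of all genes tested. The 3 were Phgdh (-0.66 ± 0.11), the transcription factor gene Atf5 (-0.50 ± 0.08) and Psat1, the next serine enzyme (-0.48 ± 0.05). Either alternative scaling gave 5 lower.

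Myc levels differed more between groups than those of any synthetase. Myc had 2.61 and 1.37 FPKM in siMbnl1/2, 26.6 and 28.1 in miR-294, 1.99 and 2.53 in Dgcr8 KO and 32.8 and 33.3 in WT cells, so it was high in the same groups as the cytosolic synthetases. Mycn had 62.7 and 70.5 FPKM in siMbnl1/2, 99.1 and 99.3 in miR-294, 68.9 and 66.6 in Dgcr8 KO and 44.7 and 45.3 in WT cells, and Mycl had 1.3 and 1.23, 4.02 and 3.34, 1.18 and 0.831 and 1.84 and 1.92 FPKM in the same order. Mycn and Mycl were thus highest in miR-294 cells. The part of Atf4 or of the Myc genes in the synthetase levels was not tested.

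Other translation genes were counted in the same way, beside background shares of 30.1% lower and 29.6% higher in Dgcr8 KO against WT cells and of 22.9% higher and 29.2% lower with miR-294. These lists hold 3 to 10 genes, and no difference from the synthetases was tested. Of 5 cytosolic elongation factor genes, 3 were called lower in Dgcr8 KO than in WT cells and the same number higher in miR-294 than in Dgcr8 KO cells, led by Eef1d, a subunit of the eEF1 exchange factor (-0.94 and 0.89); under quantile normalization 2 were called lower and 1 higher in Dgcr8 KO, and 2 higher and 1 lower with miR-294. Of 10 mitochondrial translation factor genes, 5 were called lower and 1 higher in Dgcr8 KO against WT cells, and 3 higher and 1 lower with miR-294. The 5 called lower lay above their background share, the 3 called higher near theirs, and both counts of 1 below. Mtrf1, a mitochondrial release factor gene, had 6.3 and 6.33 FPKM in miR-294 and 3.94 and 3.94 FPKM in Dgcr8 KO cells (0.57 ± 0.09), and its relative Mtrf1l went the other way (-0.63 ± 0.12). The 3 genes of the mitochondrial amidotransferase, which acts after Ears2, had 2 called lower in Dgcr8 KO cells and 0 called with miR-294. Of 4 genes for editing and deacylase proteins, 2 were called lower in Dgcr8 KO cells, and Aarsd1 was the 1 called higher with miR-294 (0.39). Among the 4 kinases of eIF2alpha, which act upstream of ATF4, Eif2ak2 was called lower with miR-294, at 6.38 and 6.47 FPKM in miR-294 and 13.8 and 15.4 FPKM in Dgcr8 KO cells (-1.07 ± 0.11), and Eif2ak1 higher (0.25 ± 0.08). None of these 5 lists, elongation factors to kinases, had a gene called by limma in siMbnl1/2 against Dgcr8 KO cells. Of all genes tested, 0.868% were called higher there and 0.242% lower. At an unadjusted p under 0.05, 3 genes of these lists passed, against 2355 of all 12786 genes tested.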

How the data were processed

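The authors deposited 1 table of FPKM per gene and library, made with STAR 2.5.0 and Cufflinks 2.2.1 on the build mm10 per the submitters' processing notes. Libraries followed a dUTP protocol per the labels, which give polyA RNA as the material where the design text has total RNA. The annotation release, the strand setting of the counting and the read depth are not given in the sources used here. No counting interval can be given for FPKM, whose scale depends on everything else in a library. Starts in the table count from 0 and are printed here from 1.

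From these values, log2(FPKM + 1) was fitted with 4 group means over all 8 libraries in limma 3.58.1 (R 4.3.3, statmod 1.5.0), with a trended, robust variance, after checking on simulated data. Entries averaging at least 1 FPKM across libraries (12786 of 49641) were tested, two-sided, with Benjamini-Hochberg adjustment over all of them and calls at an adjusted p under 0.05. The members and gene lists were chosen with earlier results of these data known. Per comparison, the 5 largest rises and falls among called members with no overlap between groups were named with full statistics, and up to 3 called genes per surrounding list. Alternatives were a pseudocount of 0.1, no filter on low values, 2 scalings (median of ratios and quantile), only the libraries compared, a replicate block and leaving out each library. Promoter windows and the microRNA came from RefSeq (GRCm38.p6), and 3′ UTRs from GENCODE M21. Protein sequences were not used here.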

Additional observations from a re-analysis of the deposited data

How the results depend on the processing

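With 2 libraries per group and no read counts, precision rests on 1 shared estimate of the spread. No member called in a comparison changed sign under any alternative apart from Gars, Iars and Sars in Dgcr8 KO against WT cells, whose changes were 0.06, 0.11 and 0.07 under quantile normalization; that setting also left 10 cytosolic calls there in place of 17. In siMbnl1/2 against Dgcr8 KO cells the cytosolic count of 1 became 0 with no filter on low values, with only the libraries compared and with a replicate block, and 2 under median-of-ratios scaling or quantile normalization, and the mitochondrial count of 1 became 0 under the first 3 of these. In miR-294 against WT cells only the libraries compared gave 14 cytosolic calls in place of 9. The cause of these changes was not tested. Leaving out each library in turn gave 14 to 17 cytosolic and 7 to 10 mitochondrial calls in Dgcr8 KO against WT, 16 to 17 and 5 to 8 in miR-294 against Dgcr8 KO, 0 to 3 and 0 to 1 in siMbnl1/2 against Dgcr8 KO, 4 to 11 and 2 to 6 in miR-294 against WT, and 16 to 18 and 3 to 11 in siMbnl1/2 against miR-294 cells. Where that left 1 library in a group, it was assumed to vary like the other groups.

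The split of all calls moved by over 10 percentage points under median-of-ratios scaling in siMbnl1/2 against Dgcr8 KO (97 higher and 75 lower, against 111 and 31), in miR-294 against WT (2019 and 1536, against 1508 and 1882) and in siMbnl1/2 against miR-294 cells (3477 and 3461, against 4217 and 2685). Deviations of same-numbered libraries from their group means had correlations of -0.0495 to 0.191. Such values cannot show whether the numbers pair the samples, and the labels do not say that they do. With the replicate number as a block, Iars and Aars2 lost their calls in Dgcr8 KO against WT, Yars2 in miR-294 against Dgcr8 KO, Nars and Lars2 in siMbnl1/2 against Dgcr8 KO, and Gars and Tars in miR-294 against WT, and no call was lost or gained in siMbnl1/2 against miR-294 cells.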
